A study of Arabidopsis thaliana with 41 samples.

Results

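The comparison described here sets the *Ateaf1-1* mutant of *Arabidopsis thaliana* against the wild type (WT) across all genes of leaf RNA-seq. It rests on 7 of the 41 samples of the series: 3 *Ateaf1-1* libraries (replicates 1, 2 and 3) and 4 WT libraries (replicates 4, 5, 7 and 8). They were chosen by their labels, and the direction of every difference was also required to hold against WT replicate 4, because this is the only WT library that carries the same set of labels as the mutant libraries. For the estimate of the spread, which sets the errors and p-values, 3 *Atepl1-2* libraries and 3 *glk* libraries of the mutant's label set entered the same fit of 13 libraries, and 3 first-set *Atepl1-2* libraries serve 1 comparison at the end. WT was the accession Col-0. *Ateaf1-1* is 1 line, made in Col-0 with Cas9 and a pair of guide RNAs and then backcrossed to Col-0, in which the tandem genes *AtEAF1A* and *AtEAF1B* are fused into a chimeric gene with a shifted reading frame upstream of the region for the SANT domain. No treatment was given. Plants grew in 16 h light and 8 h dark at 80 to 90 µmol m-2 s-1 to the stage of about 10 leaves, and rosette leaves 5 and 6 were taken about 5 h after the light came on, with leaves of at least 6 plants (110 mg of tissue) pooled in each repeat. What the 2 sets of labels stand for is not given in the sources used here, and 3 of the 4 WT libraries belong to the first set, so the set and the genotype can be told apart only through WT replicate 4.

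NuA4 is a histone acetyltransferase complex that acetylates the tails of histone H4 and of the variant H2A.Z. In yeast, Eaf1 is the platform that joins the catalytic module, held together by Epl1 around the acetyltransferase Esa1, to the part of the complex that binds activators and chromatin. Plants have a pair of EAF1 copies, a pair of EPL1 copies and the Esa1 homologues HAM1 and HAM2. Most chloroplast proteins are encoded in the nucleus and imported.

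The sequences below are the sites that the 2 guides of the *Ateaf1-1* construct match, shown because they are its targets. They are not the sequence of the allele, whose junction is not shown here. They were read from the RefSeq genome TAIR10.1 by matching 19 bases of each construct primer, are written 5′ to 3′ on the minus strand of chromosome 3, and carry the adjoining NGG motif (PAM) in capitals.

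Guide 1: gcaaaagaccaccaagcaatTGG

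Guide 2: aatttattggaggtcgtgatAGG

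Both sites lie in coding sequence and both occur in each gene. Guide 1 matches chr3:9090685-9090707 in *AtEAF1A* (AT3G24880, chr3:9085720-9096689) and chr3:9079462-9079484 in *AtEAF1B* (AT3G24870, chr3:9074665-9085419). Guide 2 matches chr3:9090563-9090585 and chr3:9079340-9079362. The copies of each site are 11223 bp apart, which is about the length of 1 of the genes.

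The labels give each library as a repeat of its genotype and do not say whether repeats were grown apart, so p-values measure the spread between these pools of plants. The 7 libraries held between 23881499 and 37888760 counts, and 20733 of 32865 genes passed the filter on low counts. Levels are given as CPM, the count of a gene relative to the TMM-scaled library total, in which the median gene differed by 0.07 (log2) between the genotypes. With library totals in its place the median of all genes moved to 0.92, and on log2(TPM + 1) to 0.56. All changes here are relative to the median gene. WT replicate 4 stood apart from the other WT libraries. It was the WT library farthest from the rest by Dixon's test at the 95% level for 1907 genes (9.2% of those tested), against 181 to 189 genes for each of the other 3. The summed level of 5 mesophyll genes was 5150 CPM in WT replicate 4 and 14500 to 16900 CPM in WT replicates 5, 7 and 8, and in *Ateaf1-1* it was 5570 to 11000 CPM.

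Both target genes were still read. *AtEAF1A* (EAF1A) had 13.8, 16.0, 14.3 and 11.2 CPM in WT replicates 4, 5, 7 and 8, and 9.50, 6.48 and 8.86 CPM in *Ateaf1-1* replicates 1, 2 and 3. *AtEAF1B* (EAF1B) had 15.6, 14.7, 20.7 and 15.1 CPM in WT, and 10.0, 9.60 and 10.8 CPM in *Ateaf1-1*. In each gene the mutant libraries lay below all WT libraries on this scale, but the log2 fold change turned positive with library totals (0.12 for EAF1A and 0.16 for EAF1B) and on log2(TPM + 1) (0.13 and 0.11). On the TMM scale the log2 fold changes were -0.74 (SE 0.24, adjusted p = 0.024, edgeR) and -0.70 (SE 0.24, adjusted p = 0.031), neither of which passed the threshold of 0.01. The copies are nearly identical, so the split of reads between them is uncertain, and a gene-level count shows neither the deletion nor the frameshift.

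Of the 20733 genes tested, 2440 (11.8%) were lower and 2800 (13.5%) higher in *Ateaf1-1*. These shares of all genes are the background for the list counts below that follow the same rule. Counts from other settings have other backgrounds: with library totals it was 8752 genes higher and 626 lower of the 20733. A gene was called when edgeR's quasi-likelihood test gave a Benjamini-Hochberg adjusted p under 0.01, the change was at least 1.5-fold, and all 3 mutant libraries lay on the same side of WT replicate 4. The requirement on WT replicate 4 removed 153 of 2593 lower genes and 18 of 2818 higher genes. Where WT replicate 4 was left out of a fit, this requirement was dropped too. Whatever the test, all mutant libraries lay below all WT libraries for 18.8% of genes and above them for 23.4%. The rises were the larger changes by the fitted log2 fold change. On it 678 called genes rose and 184 fell by at least 8-fold, and 1127 rose and 605 fell by at least 4-fold. Where a genotype had no counts, the fitted value can exceed what the counts bound. TT8, fitted at 6.59, was at least 2.03-fold higher against a floor of 3 counts per WT library. How many of these genes lack such a bound was not counted. The median log2 fold change was 1.64 among the higher genes and -1.42 among the lower ones. With WT replicate 4 as the only WT library, 1194 genes were higher and 1058 lower, of which 977 and 842 were among the calls above. In the 7 libraries alone, without the other mutants in the fit, 1754 were higher and 1711 lower. With library totals as the scale, 8752 genes were higher and 626 lower, and all 626 were among the lower calls above.

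**Figure D1:**
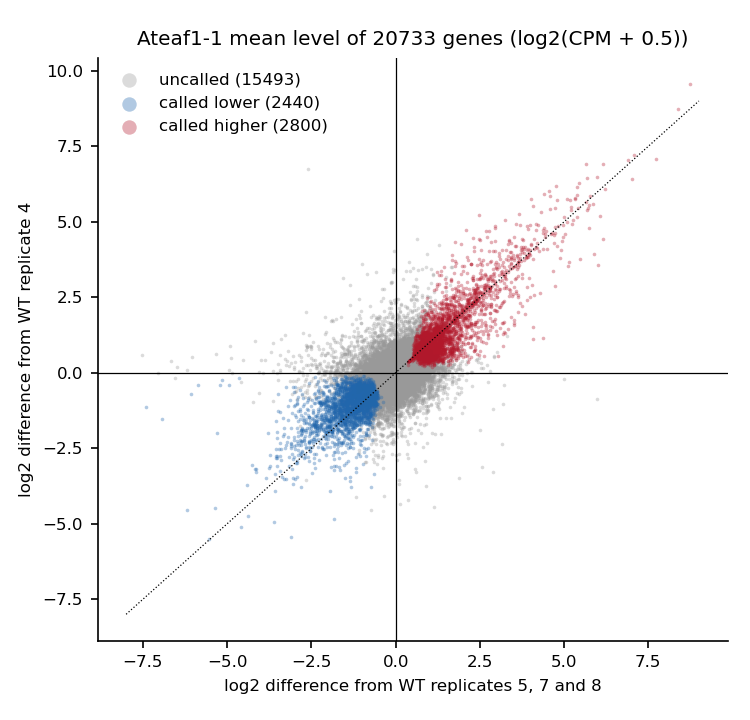
Each point is 1 of 20733 genes. The x axis is the mean level in *Ateaf1-1* relative to WT replicates 5, 7 and 8, and the y axis relative to WT replicate 4, both as log2 differences of CPM + 0.5. The 2440 called lower (blue) lie below 0 on the y axis and the 2800 called higher (red) above it, by the rule, and the grey points spread around the dotted line of equal differences.

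The nuclear genes for plastid ribosomal proteins fell together. All 38 genes of this list were called lower (38 of 38, against 11.8% of all genes), with a median log2 fold change of -2.34 and a range of -3.32 to -1.17. These proteins form the ribosome that translates the chloroplast genome. The gene rpl4 (AT1G07320), for a large-subunit protein, had 58.1 CPM in WT replicate 4, 138, 161 and 151 CPM in WT replicates 5, 7 and 8, and 13.5, 10.2 and 14.6 CPM in *Ateaf1-1*. The log2 fold change was -3.32 (SE 0.32, adjusted p = 4.3e-06, edgeR). For rpl15 (AT3G25920), also of the large subunit, WT replicate 4 had 161 CPM, the other WT libraries had 232, 295 and 288 CPM, and *Ateaf1-1* had 36.2, 25.2 and 32.5 CPM, a log2 fold change of -2.96 (SE 0.25, adjusted p = 1.4e-06). Each mutant library was therefore below the lowest WT library, which was WT replicate 4. The summed level of the list was 3570 CPM in WT replicate 4, 5010 to 5520 CPM in the other WT libraries and 972 to 1120 CPM in *Ateaf1-1*. The calls held widely: 33 of 38 were lower with WT replicate 4 as the only WT, 35 with library totals and all 38 with any 1 library left out. The study chose this list, and those for chlorophyll and the photosystems, with the same libraries in hand, so their direction is not independent evidence.

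Of 28 genes of chlorophyll synthesis tested, 17 were lower and 0 higher, and the median log2 fold change was -1.56. PORA, which encodes a light-dependent protochlorophyllide oxidoreductase, had 19.7 CPM in WT replicate 4, 35.9, 35.3 and 48.4 CPM in the other WT libraries and 1.69, 1.22 and 2.34 CPM in *Ateaf1-1* (log2 fold change -4.31, SE 0.44, adjusted p = 6.0e-06). DVR, a divinyl reductase of the same pathway, had 37.4 CPM in WT replicate 4, 64.8, 72.0 and 71.0 CPM in the other WT libraries and 9.81, 3.75 and 6.04 CPM in the mutant (-3.23, SE 0.38, adjusted p = 2.3e-05). GSA2, an aminotransferase that makes the precursor 5-aminolevulinate, was even across WT, at 101, 100, 121 and 115 CPM in replicates 4, 5, 7 and 8, and at 21.6, 20.1 and 18.1 CPM in *Ateaf1-1* (-2.46, SE 0.22, adjusted p = 2.1e-06). CHLH, which encodes the large subunit of magnesium chelatase, went otherwise. It had 713 CPM in WT replicate 4 and 2690 to 3250 CPM in the other WT libraries, and the mutant, at 927, 1190 and 1170 CPM, lay above the former and below the latter. Its log2 fold change of -1.13 (SE 0.46) had an adjusted p of 0.062, and it was called lower only without WT replicate 4. With WT replicate 4 as the only WT, 13 of the 28 were lower.

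In photosystem II with its antenna, 19 of 27 genes were lower and 0 higher (median log2 fold change -1.30), and in photosystem I with electron transport 19 of 21 were lower and 0 higher (median -1.28). PSB28, a photosystem II assembly protein, had 31.3 CPM in WT replicate 4, 101, 88.0 and 91.6 CPM in the other WT libraries, and 7.51, 7.83 and 7.46 CPM in *Ateaf1-1* (-3.36, SE 0.35, adjusted p = 6.7e-06). PSAN, a photosystem I subunit, had 800 CPM in WT replicate 4, 1600, 1420 and 1520 CPM in the others and 342, 449 and 336 CPM in the mutant (-1.83, SE 0.28, adjusted p = 0.00018). The antenna gene LHCB1.1 had 1920 CPM in WT replicate 4 and 6120 to 6690 CPM in the other WT libraries, while *Ateaf1-1* had 1470, 3440 and 2510 CPM, on both sides of WT replicate 4, and was called only without WT replicate 4 (-1.08, SE 0.41, adjusted p = 0.049 with it). Summed over photosystem II, WT replicate 4 had 51400 CPM, the other WT libraries 81500 to 87300 CPM and the mutant 23600 to 38900 CPM. With WT replicate 4 as the only WT, 2 of 27 and 0 of 21 genes passed as lower, and the medians were -0.68 and -0.67. With library totals 5 and 1 passed, and the medians were -0.43 and -0.40. The counts were 12 and 12 without *Ateaf1-1* replicate 1, 13 and 11 without *Ateaf1-1* replicate 3, and 24 and 20 without WT replicate 4.

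The Calvin cycle list had 5 of 20 genes lower and 0 higher, with a median log2 fold change of -0.91, but the median was -0.01 with library totals, 0.14 on log2(TPM + 1) and 0.16 against WT replicate 4 alone. The 5 became 13 without WT replicate 4, 1 against it alone, 3 with library totals and 2 on log2(TPM + 1). The summed level was 9920 CPM in WT replicate 4, 28300 to 33900 CPM in the other WT libraries and 10600 to 17400 CPM in *Ateaf1-1*. RBCS1A, a small subunit of Rubisco, had 2670 CPM in WT replicate 4, 7220, 6070 and 6090 CPM in the others and 2320, 4520 and 2400 CPM in the mutant, and was not called (-0.84, SE 0.34, adjusted p = 0.064). RCA, Rubisco activase, had 734 CPM in WT replicate 4, 4730, 4750 and 4100 CPM in the others, and 1410, 2930 and 1670 CPM in the mutant (-0.84, SE 0.48, adjusted p = 0.17). Each mutant library was thus above WT replicate 4 in RCA and below the other WT libraries, and without WT replicate 4 both RBCS1A and RCA were called lower. The called members were TPI, GAPA2, HCEF1, RPI3 and RPE, enzymes of the reduction and regeneration steps, with log2 fold changes of -2.02, -1.86, -1.85, -1.52 and -1.03, the last of which turned to 0.02 on log2(TPM + 1).

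**Figure D2:**
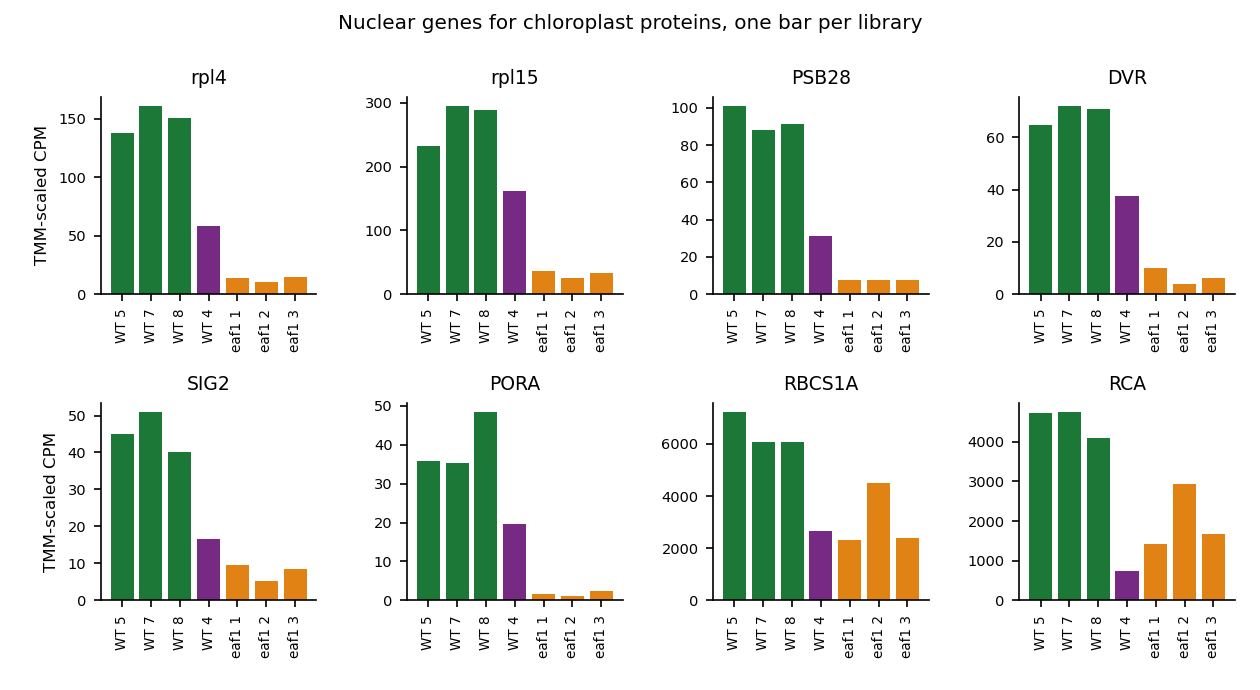
Bars show TMM-scaled CPM in 1 library each for 8 nuclear genes of chloroplast proteins (green, WT replicates 5, 7 and 8; purple, WT replicate 4; orange, *Ateaf1-1* replicates 1 to 3; y axes start at 0). In rpl4, rpl15, PSB28, DVR, SIG2 and PORA the orange bars are below the purple one. In RCA they are all above it, and in RBCS1A they lie on both sides of it.

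The sigma factors, which direct the bacterial-type RNA polymerase of the chloroplast to its promoters, gave 4 of the 7 calls in plastid transcription (SIG2, SIG3, SIG4 and SIG6). In this list 7 of 18 genes were lower and 0 higher, with a median log2 fold change of -0.80 that became 0.05 with library totals and 0.15 on log2(TPM + 1). The number of lower genes was 2 with library totals, 0 on log2(TPM + 1) and 1 against WT replicate 4 alone. SIG2 had 16.6 CPM in WT replicate 4, 45.1, 50.9 and 40.2 CPM in the other WT libraries and 9.42, 5.28 and 8.44 CPM in *Ateaf1-1* (-2.30, SE 0.37, adjusted p = 0.00028). SIG6 had 30.6 CPM in WT replicate 4, 46.4, 46.0 and 44.6 CPM in the others and 14.6, 12 and 12.6 CPM in the mutant (-1.68, SE 0.22, adjusted p = 5.0e-05). SIG5 had 6.15 CPM in WT replicate 4, 45.5, 33.1 and 28 CPM in the other WT libraries and 21.4, 34.5 and 27.2 CPM in the mutant, and was not called (-0.02, SE 0.48, adjusted p = 0.97).

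The transcripts of the chloroplast itself took a smaller share of the counts in *Ateaf1-1*. Chloroplast genes held 63.6%, 60.0%, 65.6% and 61.2% of the counts in WT replicates 4, 5, 7 and 8, a mean of 62.6% ± 2.54 (SD, n = 4). They held 50.2%, 40.2% and 49.9% in the mutant, a mean of 46.8% ± 5.72 (SD, n = 3). The groups did not overlap, and a two-sided exact permutation test gave p = 0.0286, the smallest that 35 splits allow. Here WT replicate 4 lay among the other WT libraries. ATCG00020 alone had 433000 to 531000 CPM in WT on the TMM scale, which does not give its share of the counts. Without this gene the chloroplast shares were 44.0% ± 3.97 in WT and 26.0% ± 4.70 in *Ateaf1-1*. Of 112 chloroplast genes tested, 46 were lower and 0 higher (median log2 fold change -0.95, and -0.08 with library totals). The lower count was 15 against WT replicate 4 alone, 19 with library totals, 13 on log2(TPM + 1) and 27 in the 7 libraries alone. ATCG00580, for example, had 5090, 4700, 7160 and 5550 CPM in WT replicates 4, 5, 7 and 8 and 1430, 1420 and 1720 CPM in the mutant (-1.88, SE 0.28, adjusted p = 0.00014). Some low values moved with the label set instead: ATCG00620 had 353 to 729 CPM in the first-set WT libraries, 6.31 CPM in WT replicate 4 and 2.51 to 2.70 CPM in *Ateaf1-1*, and was not called against WT replicate 4 alone. In bulk tissue, fewer chloroplasts or cells of a type and less RNA in each cannot be told apart.

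Mitochondrial genes took a larger share. It was 0.764%, 0.640%, 0.699% and 0.720% of counts in WT replicates 4, 5, 7 and 8 (mean 0.705% ± 0.0516, n = 4) and 1.80%, 1.64% and 1.84% in *Ateaf1-1* (mean 1.76% ± 0.106, n = 3; exact permutation p = 0.0286). The chloroplast and mitochondrial shares are parts of 1 total, and without ATCG00020 the mitochondrial shares were 1.06% ± 0.111 and 2.45% ± 0.244. On the TMM scale 13 of 113 mitochondrial genes were higher, beside 13.5% of all genes, and 1 lower, with a median log2 fold change of 0.08. These counts moved with the libraries: 23 genes were lower and 16 higher without WT replicate 4, 6 were higher without *Ateaf1-1* replicate 3, 7 without WT replicate 5, 8 without *Ateaf1-1* replicate 1 or 2, and 4 against WT replicate 4 alone or in the 7 libraries alone. Library totals gave 44 higher, beside 8752 of the 20733 genes tested. ATMG00570 had 57.7, 43.1, 70.1 and 55.4 CPM in WT replicates 4, 5, 7 and 8 and 121, 153 and 132 CPM in the mutant (1.26, SE 0.19, adjusted p = 0.00018), a call lost against WT replicate 4 alone and with a label-set term. Among 8 nuclear genes of the mitochondrial stress response 2 were higher (1 in the 7 libraries alone), and AOX1D, an alternative oxidase, had 0, 0, 0.272 and 0 CPM in WT and 9.02, 8.85 and 8.90 CPM in *Ateaf1-1*.

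**Figure D3:**
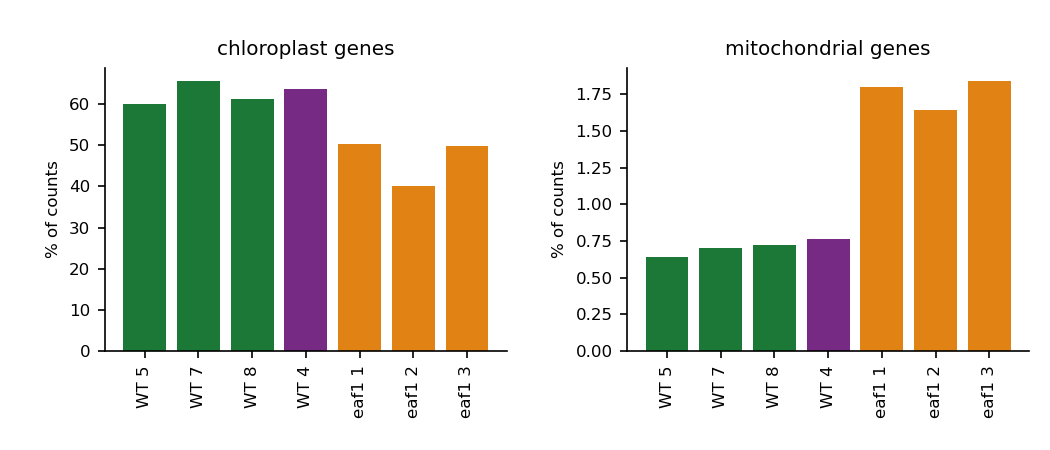
Bars give the percent of all counts on chloroplast genes (left) and on mitochondrial genes (right) in each library (green, WT replicates 5, 7 and 8; purple, WT replicate 4; orange, *Ateaf1-1*; y axes start at 0). The chloroplast share is 60.0% to 65.6% in WT and 40.2% to 50.2% in the mutant, and the mitochondrial share is 0.640% to 0.764% and 1.64% to 1.84%.

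Of 12 regulators of greening tested, 1 was lower and 2 were higher, near the 11.8% and 13.5% of all genes. GLK1, a transcription factor that promotes chloroplast development, had 63.9, 71.5, 49.6 and 53.9 CPM in WT replicates 4, 5, 7 and 8 and 55.7, 60.8 and 46.9 CPM in *Ateaf1-1* (-0.13, SE 0.19, adjusted p = 0.60). Its partner GLK2 had 31.0, 48.9, 34.2 and 35.2 CPM in WT and 30.6, 41.1 and 28.9 CPM in the mutant (-0.15, SE 0.24, adjusted p = 0.63). For both, the groups overlapped, and with library totals or TPM the values turned positive (0.71 and 0.77 for GLK2). GNC and GNL, a pair of GATA factors that promote greening, were called higher at log2 fold changes of 1.17 and 2.25, but neither against WT replicate 4 alone and GNC not with a label-set term, and the photoreceptor gene PHYA was called lower at -1.38. The call of PHYA was lost with library totals, TPM, WT replicate 4 alone, a label-set term, and without *Ateaf1-1* replicate 1 or 2.

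Most genes of salicylic acid immunity rose. Salicylic acid is made through ICS1 after infection, is sensed by the NPR proteins and switches on the pathogenesis-related (PR) genes, while EDS1 and PAD4 relay signals from intracellular immune receptors. Of 28 genes tested 22 were higher (against 13.5% of all genes) and 0 lower, with a median log2 fold change of 2.35. PR1 had 0.312, 0, 1.52 and 2.41 CPM in WT replicates 4, 5, 7 and 8 and 717, 467 and 685 CPM in *Ateaf1-1*, a log2 fold change of 9.25 (SE 0.94, adjusted p = 6.1e-06). PR2, a glucanase, had 5.69, 1.28, 9.03 and 3.15 CPM in WT and 833, 783 and 885 CPM in the mutant (7.43, SE 0.53, adjusted p = 3.1e-07). DLO1, which hydroxylates salicylic acid, had at most 0.218 CPM in WT and 69.2, 82.2 and 69.9 CPM in the mutant (9.35, SE 0.44, adjusted p = 8.7e-09). For these genes WT replicate 4 lay with the other WT libraries. PAD4 had 8.59, 14.7, 15.9 and 11.2 CPM in WT and 87.0, 70.8 and 98.5 CPM in *Ateaf1-1* (2.76, SE 0.23, adjusted p = 1.0e-06). Among the other steps, ICS1 was at 5.44 to 10.8 CPM in WT and 56.2 to 85.3 CPM in the mutant, and FMO1, which makes the mobile signal N-hydroxypipecolic acid, at 0 to 0.244 CPM in WT and 13.9 to 20.9 CPM in the mutant. Of the salicylic acid receptors, NPR1 and NPR3 were not called, at log2 fold changes of 0.07 and 0.20, and NPR4 was called at 1.54, though not against WT replicate 4 alone or in the 7 libraries alone. NPR3 had 51.5, 59.1, 89.9 and 41.1 CPM in WT and 46.3, 77.5 and 84.9 CPM in *Ateaf1-1*, with overlapping groups. With WT replicate 4 as the only WT, 17 of the 28 were higher, and with any 1 library left out 18 to 23 were.

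Receptor families of the cell surface held many higher genes. Of 35 cysteine-rich receptor kinases (CRKs) tested, 19 were higher and 0 lower, and of 47 receptor-like proteins (RLPs), 28 were higher and 0 lower; the medians were 2.29 and 1.92. CRK7 had 0.469, 0.611, 0.544 and 0.432 CPM in WT replicates 4, 5, 7 and 8 and 51.5, 53.1 and 60.6 CPM in *Ateaf1-1* (6.75, SE 0.25, adjusted p = 1.9e-09). CRK37 had 0.125, 0.305, 0.435 and 0.432 CPM in WT and 30.2, 39.2 and 40.8 CPM in the mutant (6.92, SE 0.31, adjusted p = 7.6e-09). RLP41 had 1.31, 0.978, 0.979 and 0.988 CPM in WT and 70.0, 115 and 79.4 CPM in the mutant (6.35, SE 0.29, adjusted p = 7.9e-09). The spread within each genotype was small beside these differences. CRK10, the most abundant uncalled member, had 62.0, 102, 143 and 100 CPM in WT and 46.0, 54.5 and 71.5 CPM in *Ateaf1-1* (-0.83, SE 0.24, adjusted p = 0.015). Among intracellular receptors of the nucleotide-binding class 12 of 103 were higher and 3 lower, with a median of 0.37, beside 13.5% and 11.8% of all genes. The higher count was 27 without WT replicate 4, 9 to 12 without any 1 other library, 20 with DESeq2, 18 with a label-set term and 6 against WT replicate 4 alone. One of them, AT5G18350, had no count in any WT library and 3.93, 4.14 and 4.39 CPM in the mutant, at least 26.6-fold higher against a floor of 3 counts per WT library. Genes of these families have close copies, so reads may have been split among them.

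**Figure D4:**
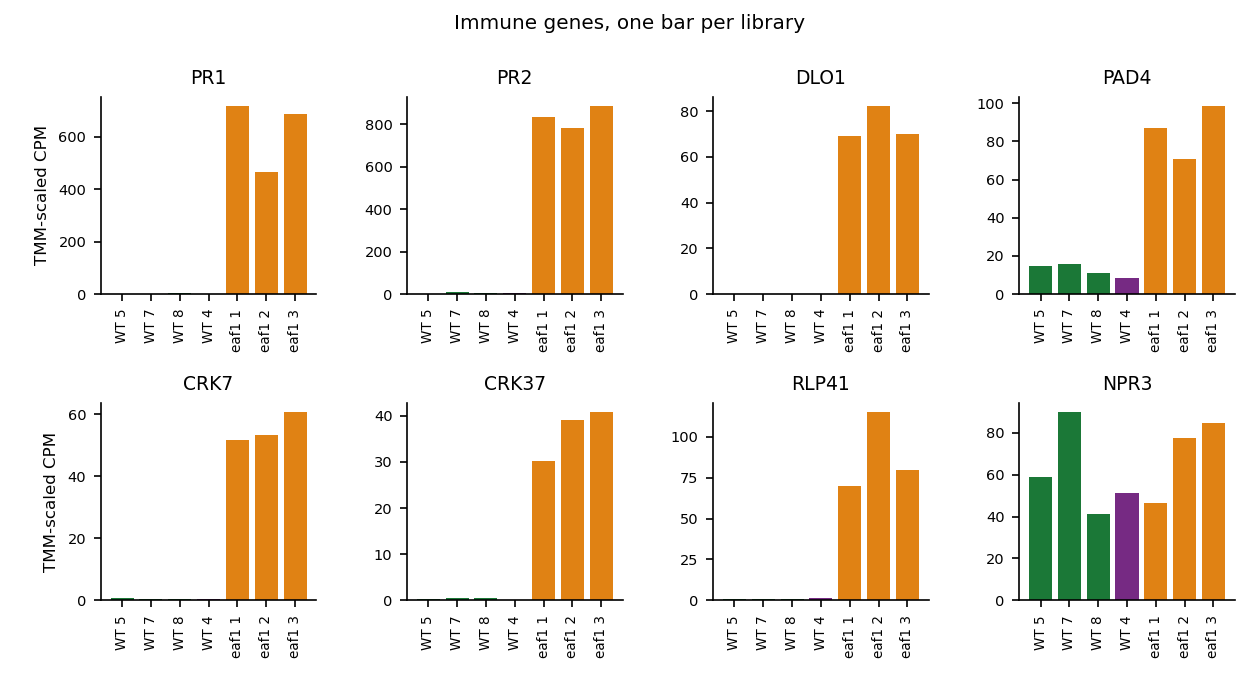
Bars show TMM-scaled CPM in 1 library each for 8 immune genes (green, WT replicates 5, 7 and 8; purple, WT replicate 4; orange, *Ateaf1-1*; y axes start at 0). In 7 of the 8 genes the orange bars stand above all WT bars (PR1, 467 to 717 CPM against at most 2.41 CPM), while in NPR3 they lie among them.

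Of 55 WRKY transcription factors, a family many of whose members act in immunity and senescence, 21 were higher and 2 lower. With library totals 37 were higher and 0 lower, beside 8752 and 626 of the 20733 genes tested. WRKY38, a factor induced by salicylic acid, had 0.562, 0, 0 and 0 CPM in WT replicates 4, 5, 7 and 8 and 17.5, 11.3 and 14.5 CPM in *Ateaf1-1* (6.16, SE 0.63, adjusted p = 6.4e-06). WRKY53, which promotes leaf senescence, had 13.8, 15.5, 23.8 and 9.51 CPM in WT and 37.7, 112 and 80.7 CPM in the mutant (2.29, SE 0.34, adjusted p = 0.00015). WRKY40, a repressor of immune genes, had 54.2, 169, 193 and 77.4 CPM in WT and 6.19, 23.9 and 36.7 CPM in the mutant (-2.47, SE 0.55, adjusted p = 0.0028), and its call was lost with library totals, with TPM, in the 7 libraries alone, against WT replicate 4 alone, with a label-set term and without *Ateaf1-1* replicate 2. WRKY7 was the other gene called lower, at -0.93, a call lost under 9 of 19 alternatives and a value that turned to 0.04 on log2(TPM + 1). In the list of senescence and chlorophyll breakdown 5 of 12 genes were higher and 1 lower. SAG13 had 0.326 to 1.05 CPM in WT and 47.1, 88.0 and 38.5 CPM in *Ateaf1-1* (6.44, SE 0.40, adjusted p = 1.1e-07), and NYE1, a magnesium dechelatase that starts chlorophyll breakdown, had 6.59, 12.4, 10.1 and 8.58 CPM in WT and 25.2, 21.4 and 21.6 CPM in the mutant (1.28, SE 0.20, adjusted p = 0.0002). SAG12, a protease taken as a marker of late senescence, was not called (-1.50, SE 1.28). It had 4.28 CPM in WT replicate 4, 0 CPM in the other WT libraries and 0.753, 0.327 and 0.146 CPM in the mutant. Without WT replicate 4 its sign turned. SEN1 was called lower at -2.51 and lost that call under 9 of 19 alternatives.

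The 20 genes of jasmonate and ethylene signalling are read beside 13.5% higher and 11.8% lower among all genes. Of the 20, 5 were higher (VSP1, HEL, HCHIB, PDF1.3 and THI2.1) and 0 lower. Against WT replicate 4 alone 2 were higher, and without it 4 were lower and 6 higher. HEL, a hevein-like PR protein, had 7.53, 6.60, 7.56 and 6.92 CPM in WT replicates 4, 5, 7 and 8 and 46.6, 29.4 and 40.9 CPM in *Ateaf1-1* (2.44, SE 0.37, adjusted p = 0.00015). Its call was lost against WT replicate 4 alone, as were those of PDF1.3, THI2.1 and VSP1. MYC2, the main transcription factor of jasmonate responses, had 57.3 CPM in WT replicate 4, 212, 241 and 174 CPM in the other WT libraries and 53.3, 56.7 and 67.3 CPM in the mutant. Its log2 fold change of -1.53 passed the test (SE 0.36, adjusted p = 0.0042), but the mutant lay on both sides of WT replicate 4, so it was not called. VSP1 was called at 1.88, lost that call under 8 of 19 alternatives, and had a value of -0.08 with a label-set term. For flavonoids and anthocyanins, 7 of 14 genes were higher (against 13.5% of all genes) and 0 lower. The 7 were DFR, LDOX, UGT79B1 and UGT75C1 of the late steps and the regulators PAP1/MYB75, PAP2/MYB90 and TT8. TT8 lost its call when any of the 7 libraries was left out, on log2(TPM + 1), against WT replicate 4 alone and with a label-set term. DFR, the enzyme that commits dihydroflavonols to anthocyanins, had 0.0312, 0.183, 0 and 0 CPM in WT and 10.3, 9.90 and 14.7 CPM in *Ateaf1-1* (7.80, SE 0.65, adjusted p = 1.2e-06). CHS, the first enzyme, had 1.31 CPM in WT replicate 4, 42, 22.3 and 30.3 CPM in the other WT libraries and 22.5, 37.1 and 30.3 CPM in the mutant (0.33, SE 0.63, adjusted p = 0.70). Of 21 glucosinolate genes 5 were higher (against 13.5% of all genes) and 0 lower. Among the 5 was CYP79B2, which makes the precursor of indole glucosinolates. It had 11.4, 51.9, 55.3 and 47.0 CPM in WT and 121, 140 and 102 CPM in the mutant (1.55, SE 0.37, adjusted p = 0.0045). CYP79B2 lost its call without *Ateaf1-1* replicate 1 or 2 and in the 7 libraries alone, where 2 of the list were higher, and a label-set term gave 10.

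Of 19 genes of water deficit and cold tested, 10 were lower and 1 higher, with a median log2 fold change of -1.57. COR15A, a protein that protects membranes during freezing, had 146, 46.1, 15.5 and 32.4 CPM in WT replicates 4, 5, 7 and 8 and 5.71, 1.98 and 1.94 CPM in *Ateaf1-1* (-4.23, SE 0.77, adjusted p = 0.0007). CBF1, a transcription factor that switches on such genes in the cold, had 16.4, 17.0, 12.7 and 6.30 CPM in WT and 0.377, 1.81 and 1.09 CPM in the mutant (-3.59, SE 0.51, adjusted p = 0.0001). WT replicate 4 had the highest COR15A and COR15B levels of all 7 libraries. With it as the only WT library 9 of the 19 were lower, with any 1 library left out 6 to 10 were (6 without *Ateaf1-1* replicate 2 or 3), and with library totals 5 were. COR15B lost its call without *Ateaf1-1* replicate 2 or 3. Expansins, which loosen cell walls in growing cells, had 5 of 10 genes lower and 0 higher. EXPA11 had 47.2, 39.4, 34.0 and 30.8 CPM in WT and 6.51, 3.12 and 2.51 CPM in *Ateaf1-1* (-3.23, SE 0.37, adjusted p = 1.8e-05), and EXPA8 had 55.4, 45.4, 26.9 and 24.0 CPM in WT and 7.68, 5.56 and 3.14 CPM in the mutant (-2.80, SE 0.37, adjusted p = 6.2e-05). The median of the list was -1.01, and -0.16 with library totals, and 3 were lower with library totals or against WT replicate 4 alone. Genes of cell division and leaf growth had 2 of 14 higher, near the 13.5% of all genes, and 0 lower (1 without *Ateaf1-1* replicate 1, 4 without WT replicate 4 and 0 with a label-set term were higher). MCM2, a replication helicase subunit, had 8.84, 6.90, 8.00 and 7.16 CPM in WT and 8.10, 3.93 and 7.06 CPM in the mutant.

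Of 12 flowering genes tested 2 were higher, near the 13.5% of all genes, and 4 without WT replicate 4. FLC, a repressor of flowering, had 3.41 CPM in WT replicate 4, 0.494 to 0.672 CPM in the other WT libraries and 7.14, 11.9 and 9.72 CPM in *Ateaf1-1* (2.78, SE 0.49, adjusted p = 0.00058), and FUL was at 1.33. Neither was called against WT replicate 4 alone, nor FLC in the 7 libraries alone. None of the 18 clock genes was called by edgeR (5 had an unadjusted p under 0.05, and DESeq2 called 1). The WT libraries themselves differed here. GI, which peaks late in the light period, had 116 CPM in WT replicate 4, 45.3, 46.7 and 42.6 CPM in the other WT libraries and 64.5, 24.5 and 21.2 CPM in the mutant. When all 16 RNA-seq libraries were fitted with a term for the label set, 7 of the 18 were called lower and 5 higher, and against WT replicate 4 alone 4 and 3. The time of harvest is stated only as about 5 h after light onset, and its part in these values was not tested.

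Of 18 genes of the NuA4 complex, 7 were higher (against 13.5% of all genes) and 0 lower. The median log2 fold change of the 18 was 0.69. The 7 were HAM2, HAM1, EPL1A, ARP4, EPL1B, EAF7 and TRA1B, from 0.63 to 1.21. HAM1, a catalytic subunit, had 12.2, 9.35, 10.6 and 10.5 CPM in WT replicates 4, 5, 7 and 8 and 18.7, 17.8 and 19.1 CPM in *Ateaf1-1* (0.80, SE 0.14, adjusted p = 0.00068). TRA1B, a large scaffold that binds activators, had 27.2, 27.9, 25.1 and 24.9 CPM in WT and 68.5, 43.3 and 70.3 CPM in the mutant (1.21, SE 0.28, adjusted p = 0.0036), and lost its call without *Ateaf1-1* replicate 1 or 3 or WT replicate 7 or 8. With WT replicate 4 as the only WT library 0 of the 18 passed, 15 did with library totals, and 3 did without *Ateaf1-1* replicate 1 or 3, 4 without WT replicate 8 and 5 without any other 1. Of 9 genes for H2A.Z and the SWR1 complex that deposits it, ARP6 and SWC2 were higher, at 0.94 and 0.86, but no more than 1 was when any 1 library was left out and neither was in the 7 libraries alone or against WT replicate 4 alone, while 8 of the 9 were higher with library totals. The calls of ARP6 and SWC2 made up 22.2% of this list, beside 13.5% of all genes called higher. With library totals 8752 of the 20733 genes tested were higher, which is the background for the counts of NuA4 and SWR1 genes in that setting. The 3 H2A.Z genes HTA8, HTA9 and HTA11 were not called, at 0.02, -0.15 and -0.60. HTA9 had 35.4, 31.1, 35 and 38.7 CPM in WT and 26.8, 34.4 and 33.3 CPM in the mutant.

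Markers of the cell types of a leaf, and of tissues it should lack, were read alongside. None of the 5 mesophyll markers was called, though 3 were lower without WT replicate 4 (median log2 fold change -0.84, but 0.10 with library totals and 1.05 against WT replicate 4 alone). The mesophyll markers include RBCS1A and RCA, read above as genes of photosynthesis. They therefore cannot show the share of mesophyll apart from changes in such genes. Guard cell and epidermis markers, 4 each, were uncalled too. By edgeR, 2 of the 5 mesophyll, 2 of the 4 guard cell and 1 of the 4 epidermis markers had an unadjusted p under 0.05, and DESeq2 called 1 guard cell marker. Of 5 xylem markers 4 were lower, and their summed level was 27.3 to 46.6 CPM in WT and 7.70 to 11 CPM in *Ateaf1-1* (2 with library totals were lower). XCP1, a protease of xylem vessels, had 5.40, 13.4, 13.8 and 12.1 CPM in WT replicates 4, 5, 7 and 8 and 1.15, 1.90 and 1.53 CPM in the mutant (-2.87, SE 0.36, adjusted p = 3.7e-05). Of 3 phloem markers 2 were lower, with sums of 249 to 447 CPM in WT and 141 to 153 CPM in the mutant, but 0 were lower with library totals or against WT replicate 4 alone, 1 without any 1 library other than WT replicate 4, and 3 without that one. Of 3 trichome markers 2 were higher, with sums of 1.59 to 1.96 CPM and 5.14 to 8.75 CPM, but 0 against WT replicate 4 alone or with a label-set term, and 1 without WT replicate 8. The meristem genes STM and KNAT1, homeobox factors that are silent in a mature leaf, had no count in any WT library. STM had 1.99, 1.94 and 1.76 CPM and KNAT1 1.17, 0.371 and 1.53 CPM in *Ateaf1-1*, at least 12.1-fold and at least 6.54-fold higher against the floor of 3 counts per library. The other meristem markers were near 0: KNAT2 was uncalled at 0.251 to 0.698 CPM in the mutant, and WUS and CLV3 were too low to be tested. Of 5 flower markers only PI was called, at 0.393 to 1.4 CPM, and it lost that call under 8 of 19 alternatives. What these markers contributed to the other gene lists was not tested.

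Among the 12 largest rises, 10 had no count in any WT library, so only a lower bound can be given. ARD3, an acireductone dioxygenase of the methionine cycle, had 37.0, 18.8 and 21.9 CPM in *Ateaf1-1*, at least 166-fold higher. EDA36, a pyridoxal phosphate-dependent transferase, had 9.58, 13.9 and 12.7 CPM (at least 77.1-fold), the cytochrome P450 gene CYP81F4 7.66, 6.41 and 12.6 CPM (at least 56.8-fold), the glycosyltransferase UGT72E2 14.7, 6.39 and 5.41 CPM (at least 56.5-fold), and OSM34, an osmotin of the PR5 family, 16.2, 5.56 and 4.2 CPM (at least 55.3-fold). AT2G44240, a protein with a DUF239 domain, had 0.556 CPM in WT replicate 8, no count in the other WT libraries and 347, 164 and 169 CPM in the mutant (log2 fold change 10.92, SE 0.81, adjusted p = 1.5e-06). Among the 12 largest falls, 10 had no count in any mutant library. CIB1, a bHLH factor that binds cryptochrome 2, had 3.31, 3.24, 2.45 and 4.57 CPM in WT, at least 53.3-fold lower in the mutant. AT4G13577, of unknown function, had 3.09, 2.99, 3.10 and 5.00 CPM in WT, at least 55.7-fold lower, and the methyl esterase gene MES18 had 1.06, 3.48, 2.34 and 1.23 CPM, at least 31.9-fold lower. AT1G13650, uncharacterized, had 11.9 CPM in WT replicate 4, 38.6, 39.6 and 37.3 CPM in the other WT libraries and 0.0209, 0.0218 and 0.0418 CPM in *Ateaf1-1* (-9.97, SE 0.61, adjusted p = 1.0e-07). Of these 24 genes, U4.6 lost its call under 8 of 19 alternatives and the others under at most 2 (ATCG00620 had 18).

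**Figure D5:**
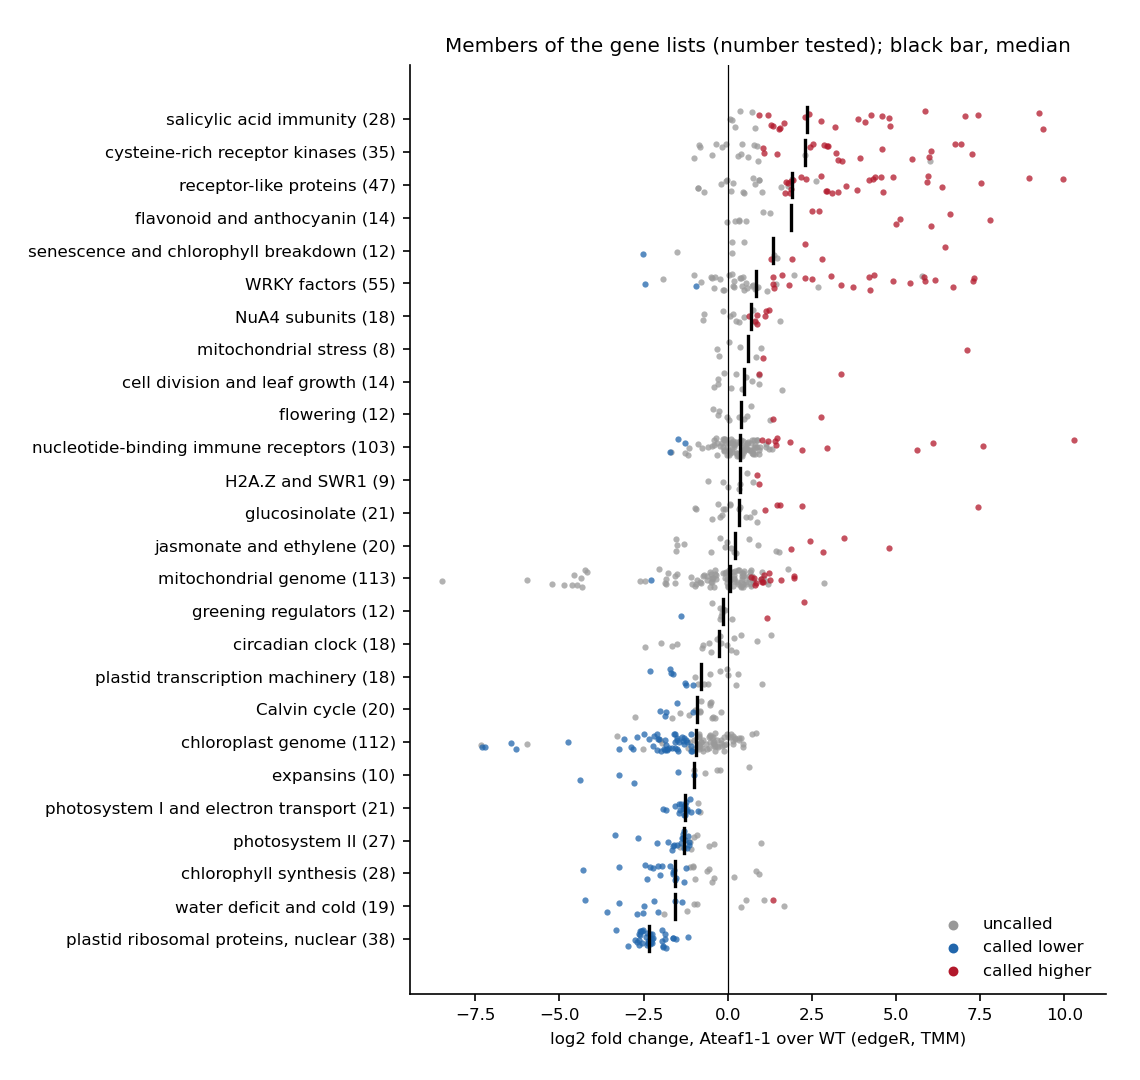
Each point is the log2 fold change of 1 tested gene (x axis, *Ateaf1-1* over WT) in its list (y axis, with the number tested), coloured by call, and black bars mark list medians. The lists run from the 38 plastid ribosomal protein genes at the bottom (median -2.34) to salicylic acid immunity at the top (median 2.35).

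Median WT levels were 4.23 TPM for lower genes, 0.48 TPM for higher genes and 1.26 TPM for all tested genes. Of the 4147 genes with the lowest WT level (up to 0.267 TPM) 24.6% were higher and 2.70% lower, and of the 4147 with the highest level (4.56 TPM and up) 3.76% were higher and 28.2% lower. The WT level is part of the comparison, so this is a description. The filter on low counts worked by group, so a gene very low in WT could pass it through a mutant group. Such a gene can hardly be called lower, and the part of this in the shares was not tested. Gene length, which the comparison did not use, differed little: the median was 2246 bp for lower, 2450 bp for higher and 2375 bp for all genes. The chromosomes were alike, with 11.2% to 12.7% of tested genes lower and 12.9% to 15.3% higher on each.

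Runs of 3 or more neighbouring tested genes called higher numbered 100, and those called lower 41. With 13.5% of all genes higher and 11.8% lower, some runs arise without clustering, and their expected number was not computed. The longest runs held 7 higher genes or 5 lower ones. On chromosome 4 the genes CRK36 to CRK40 lie in 1 run (chr4:2231717-2292965) and were all higher, and CRK5, CRK6, CRK7 and CRK8 lie in another. CRK6 had 1.73 to 4.62 CPM in WT and 133 to 156 CPM in *Ateaf1-1*. CRK40, at the end of the first run, changed least, with a log2 fold change of 1.47. On chromosome 2 a run of 5 (chr2:6212448-6246279) holds PR1, its relative PRB1 and LURP1, a gene of resistance to downy mildew, and another holds CNGC3, CNGC11 and CNGC12, which encode cyclic nucleotide-gated channels. CNGC3 had 4.94 to 18.7 CPM in WT and 83.4 to 103 CPM in the mutant. A run of 7 on chromosome 3 (chr3:5566083-5599224) holds the jacalin-related lectins JAL31, JAL33, JAL34 and JR1 beside the nitrile specifiers NSP1 and NSP4, of which NSP1 lost its call under 7 of 19 alternatives. JAL34 had 2.57 to 3.03 CPM in WT and 20.9 to 28.7 CPM in the mutant. Many of these neighbours are tandem copies of one another, so their counts are not independent.

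For short promoter motifs, the window was 250 bases before to 50 bases after the gene start in RefSeq TAIR10.1, and both strands were searched in 20361 promoters of tested genes. The G-box CACGTG, which many light-signalling factors bind, was in 11.1% of promoters of lower genes, 6.46% of higher genes and 8.65% of all. The I-box GATAAG, found in light-regulated genes, was in 19.1%, 13.8% and 15.0%. The W-box TTGACC or TTGACT, bound by WRKY factors, was in 28.4% of lower, 37.8% of higher and 32.7% of all. The telo-box AAACCCTA, common in genes for ribosomes, was in 3.90%, 6.31% and 5.65%, and the evening element AAAATATCT, bound by clock factors, in 3.52%, 2.63% and 2.98%. No motif searched contains another. By list, 62.9% of 35 CRK promoters held a W-box, 47.4% of 38 plastid ribosomal protein promoters an I-box, and 40.7% of 27 photosystem II promoters a G-box. These shares did not follow the calls from list to list: the I-box was in 61.9% of photosystem I promoters and 25.9% of those of photosystem II, the G-box in 50.0% of clock promoters, a list without calls, and the W-box in 42.9% of chlorophyll synthesis promoters, beside 39.3% for salicylic acid immunity and 40% for WRKY factors. Single genes of these lists were checked before the gene start. There PR1, PR2, DLO1 and CRK7 held no W-box, rpl4 and rpl13 no I-box, and PSB29 no G-box. A match is only a match of letters. The sites below are those nearest the gene start in the checked genes that held one. They are written in the direction of the gene with the motif, or its reverse complement, in capitals.

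CRK37: cacacctagtcaAGTCAActagtacccatt

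CRK38: ggccatctttgaAGTCAAccattactcaaa

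rpl15: ttcagacatgagCTTATCtgaaaacccact

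PSB28: acacgcatgtgcCACGTGtgtttcatgcat

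LHCB2.4: acatatcttctaCACGTGaatctagtttgt

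The first 2 are on chromosome 4 (chr4:2238280-2238309 and chr4:2241956-2241985), 78 and 104 bases before the starts of genes that had under 0.5 CPM in every WT library and 11.2 to 40.8 CPM in *Ateaf1-1*. The site of rpl15 is at chr3:9492771-9492800, 133 bases before its start. Those of PSB28 (chr4:14149705-14149734) and LHCB2.4 (chr3:10255806-10255835) are 132 and 88 bases before their starts. LHCB2.4, an antenna gene, had 252 CPM in WT replicate 4, 1360 to 1570 CPM in the other WT libraries and 134, 245 and 176 CPM in *Ateaf1-1* (-2.66, SE 0.49, adjusted p = 0.00075). Its call was lost with library totals, on log2(TPM + 1), in the 7 libraries alone, against WT replicate 4 alone and with a label-set term.

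The direction of change was also read in libraries that share nothing with each other. *Atepl1-2*, which lacks the EPL1 subunits, was compared with WT replicates 5, 7 and 8 in 3 libraries of the first label set, and 4111 genes were lower (21.8% of 18840 tested) and 4392 higher (23.3%) at the same thresholds. *Ateaf1-1* was then set against WT replicate 4 only. Its mean lay below WT replicate 4 for 3410 of the 4111 lower genes (82.9%), against 44.2% of all genes tested. It lay above for 3874 of the 4318 higher genes that had a value (89.7%), against 55.6% of all genes. No test was made of these shares, because 1 WT library gives no spread.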

How the data were processed

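RNA-seq of leaves from 3 *Ateaf1-1* and 4 WT libraries was compared. The authors trimmed the reads, removed rRNA reads and quantified genes of Araport11 with Salmon (version 0.13.1 in the submitters' processing notes) correcting for GC content and sequence bias. The estimated counts deposited for each gene are whole numbers. TPM values were deposited too, and are relative to each library's total. Totals were 23881499 to 37888760 counts per library.

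Counts were fitted with edgeR 4.0.16 under R 4.3.3 (filterByExpr, TMM, glmQLFit and glmQLFTest). The 3 *Atepl1-2* and 3 *glk* libraries of the same label set as the mutant entered the fit of 13 libraries for the shared estimate of the spread. Genes were called at a Benjamini-Hochberg adjusted p under 0.01, a change of at least 1.5-fold and all *Ateaf1-1* libraries on 1 side of WT replicate 4. Shares of counts were compared with a two-sided exact permutation test. Alternatives used DESeq2 1.42.0, limma 3.58.1 (limma-voom, and log2(TPM + 1)), other scalings, filters and thresholds, other sets of libraries, and each library left out. The edgeR fit was tested on simulated data. Lists were described by counts and medians, without set tests. Names, coordinates and promoters came from RefSeq TAIR10.1, which held 31742 of 32865 identifiers. Authors' comparisons were not used.

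The comparison and the gene lists were chosen with earlier results of these data known. Genes were named by a rule: the targeted genes, the 12 largest rises and falls without overlap and with 10 or more counts in every library of the higher genotype, in each list the 3 called members with the largest change in each direction at 10 CPM or more and the 2 most abundant uncalled members, the 5 called genes of highest TPM in each direction, and PR1, PAD4, GLK1 and GLK2. Other list members, the genes in runs of neighbours and the families in the closing section were named after their values were seen. Floors and fold bounds cover counting error only.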

Additional observations from a re-analysis of the deposited data

Results flagged for a closer look

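For 25 of 133 values checked (the genes named and the organelle shares), 1 WT library lay apart from the other 3 by Dixon's test at the 95% level. By chance about 1 in 20 would. A gene read in 1 WT library only always lies apart, whatever its level. That was so for AT2G44240, WRKY38, CRK38, AOX1D, PAP2/MYB90, THI2.1, JAL31 and SAG12, to which the rate of 1 in 20 does not apply. WT replicate 4 was the library in 18 of the 25, among them WRKY38, THI2.1, JAL31 and SAG12, and what sets it apart was not tested.

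WT replicate 4 was low in genes of photosynthesis and chloroplast transcription: RCA had 734 CPM against 4100 to 4750 CPM in the other WT libraries, LHCB1.1 1920 against 6120 to 6690 CPM, LHCB2.4 252 against 1360 to 1570 CPM, TPI 86.3 against 191 to 203 CPM, RPI3 40.3 against 76.7 to 79.7 CPM and SIG6 30.6 against 44.6 to 46.4 CPM. It was also low in AT1G13650, at 11.9 against 37.3 to 39.6 CPM, and in ARP4, at 10.9 against 15.1 to 15.8 CPM.

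WT replicate 4 was high in COR15B, at 184 against 16.9 to 26.1 CPM, in GI, at 116 against 42.6 to 46.7 CPM, and in NPR4, at 30.6 against 10.3 to 11.1 CPM. It was high as well in EPL1B (5.25 against 3.21 to 3.32 CPM), FLC (3.41 against 0.494 to 0.672 CPM) and RLP41 (1.31 against 0.978 to 0.988 CPM). SAG12 at 4.28 CPM, WRKY38 at 0.562 CPM, THI2.1 at 0.0937 CPM and JAL31 at 0.0312 CPM had counts in this WT library only.

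In other WT libraries, EAF1B was high in replicate 7 (20.7 against 14.7 to 15.6 CPM), AT4G13577 in replicate 8 (5.00 against 2.99 to 3.10 CPM) and DFR in replicate 5 (0.183 against at most 0.0312 CPM). AT2G44240 at 0.556 CPM and PAP2/MYB90 at 0.123 CPM were read in WT replicate 8 only, and CRK38 at 0.326 CPM and AOX1D at 0.272 CPM in WT replicate 7 only.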

How the results depend on the processing

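No gene called lower or higher was called in the opposite direction under any of the 19 alternatives. The counts of lower and higher genes were 626 and 8752 with library totals, 395 and 8328 with limma on log2(TPM + 1), and 1058 and 1194 with WT replicate 4 alone, where the lone WT library is assumed to vary like the other groups. In the 7 libraries alone 1711 and 1754 were called. With any 1 library left out the counts were 1832 to 3259 lower and 2142 to 3588 higher, the highest of each without WT replicate 4. Leaving out that library also dropped the requirement on it, so its counts rest on a looser rule. In all alternatives but library totals and TPM, 684 lower and 813 higher genes kept their call. The difference in the chloroplast share of counts was -17.6 to -12.5 points and in the mitochondrial share of counts 1.01 to 1.11 points with any 1 library left out, where the exact test cannot go below 0.0667 or 0.1. HTA9 turned to 0.70 with library totals and 0.76 on log2(TPM + 1), GLK2 to 0.71 and 0.77. On log2(TPM + 1), GLK1 turned to 0.87, PIP1B to 0.08, WRKY7 to 0.04 and RPE to 0.02. With a label-set term SIG5 turned to 2.02 and VSP1 to -0.08. The cause was not tested. No paired analysis was possible because the WT replicates (4, 5, 7 and 8) and the *Ateaf1-1* replicates (1, 2 and 3) share no number. Genes near the filter on low counts are known only to within counting error.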

Other observations

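Some gene families outside the lists above were counted too, against 11.8% lower and 13.5% higher of all genes. They were chosen after their values had been seen, from the gene descriptions, and carry no test as families. Of 12 plasma membrane aquaporins tested, which pass water across the cell membrane, 7 were lower and 0 higher. PIP2A had 473, 711, 497 and 535 CPM in WT replicates 4, 5, 7 and 8 and 152, 236 and 194 CPM in *Ateaf1-1* replicates 1, 2 and 3 (log2 fold change -1.51, SE 0.28, adjusted p = 0.00073, edgeR). PIP1B had 386, 739, 530 and 587 CPM in WT and 264, 307 and 285 CPM in the mutant (-0.97, SE 0.22, adjusted p = 0.0029, but 0.08 on log2(TPM + 1)). Both calls were lost with library totals, on log2(TPM + 1) and against WT replicate 4 alone, and that of PIP1B also without *Ateaf1-1* replicate 1 or 3. With library totals the median of the family moved from -1.04 to -0.19. Of 12 FKBP-like peptidyl-prolyl isomerases 9 were lower and 1 higher, with summed levels of 248 to 322 CPM in WT and 116 to 125 CPM in *Ateaf1-1*.

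Transporters of the multidrug resistance-associated family (ABCC), which move conjugated compounds into the vacuole, had 8 of 15 genes higher and 0 lower. ABCC7 had 2.31, 2.75, 2.72 and 2.47 CPM in WT replicates 4, 5, 7 and 8 and 40.3, 44.4 and 54.9 CPM in *Ateaf1-1* (4.19, SE 0.28, adjusted p = 1.7e-07). ABCC3 had 14.6, 33.4, 32.0 and 35.7 CPM in WT and 132, 147 and 169 CPM in the mutant (2.37, SE 0.34, adjusted p = 0.00012). Among NAC domain factors 20 of 54 were higher and 4 lower, among glutathione S-transferases 16 of 46 higher and 5 lower, and among MATE transporters 14 of 41 higher and 5 lower. The lower shares of the last 2 families were near that of all genes. Of 46 histone genes 3 were higher and 3 lower, both below the shares of all genes.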
